A study of Mus musculus with 17 samples.

Results

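The C2C12 line labelled SRF-PDGFRB was compared with the C2C12 line labelled SRF, over all genes of the deposited table of raw counts. The comparison holds 5 of the 17 libraries of the series: SRF-PDGFRB replicates 1 and 2, and SRF replicates 1, 2 and 3. C2C12 is an established mouse myoblast line that can form skeletal muscle fibres in culture. All lines were grown in DMEM with 10% fetal bovine serum, and polyadenylated RNA was sequenced after a stranded library preparation. The SRF line carried wild-type serum response factor and the SRF-PDGFRB line a fusion named for SRF and the receptor gene PDGFRB, with pMSCV, a retroviral vector, as the empty control of the series. The other lines, SRF-FOXO1, SRF-ICA1L and SRF-RELA, entered the fit, where they share in the estimate of the spread behind each SE and p, and their levels are given below beside some of those in SRF-PDGFRB. In a fit of the 5 libraries alone 10 genes were called, all higher and 3 of them among the 8 called over all libraries, and Srf was not called. Whether a line is a clone or a pool, how long the constructs had been expressed, and whether replicates came from separate cultures are not given in the sources used here. The p-values therefore rest on a spread between libraries, estimated over all 17, which may be technical.

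SRF binds DNA at CArG boxes and, with its cofactors, drives immediate-early genes after serum stimulation and genes of the actin cytoskeleton and of muscle. Interferons act through their receptors, JAK kinases and STAT and IRF transcription factors, which bind interferon-stimulated response elements (ISRE) and gamma-activated sequences (GAS) in promoters. Among the genes they switch on are the guanylate-binding proteins and the immunity-related GTPases, large GTPases that attack the vacuoles of intracellular pathogens, antiviral effectors such as Mx1 and the Ifit genes, and the genes that load peptides on MHC class I molecules. PDGFRB is a receptor tyrosine kinase that signals through the ERK pathway, among others.

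The promoter stretches below are shown because the genes that differed most between the lines are members of the GTPase families that interferons control. They are 60 bases each, from the RefSeq promoter windows on GRCm38.p6, written 5′ to 3′ in the direction of the gene, with capitals on matches to the ISRE core (GAAANNGAAA) or the GAS (TTCNNNGAA) on either strand, so that an ISRE core on the opposite strand reads as TTTCNNTTTC. In the Gbp genes of chromosome 3 the ISRE core was on the opposite strand. In Igtp, Irgm2, Tgtp1 and Tgtp2 of chromosome 11, a GAS came first and the ISRE core started 11 bases after the start of the GAS.
Gbp3, chr3:142559977-142560036, plus strand: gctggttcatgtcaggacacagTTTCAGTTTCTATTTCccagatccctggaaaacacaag
Gbp2b, chr3:142594685-142594744, plus strand: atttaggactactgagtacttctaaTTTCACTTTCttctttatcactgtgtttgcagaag
Gbp2, chr3:142620579-142620638, plus strand: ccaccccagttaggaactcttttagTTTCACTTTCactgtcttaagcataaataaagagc
Gbp5, chr3:142496744-142496803, plus strand: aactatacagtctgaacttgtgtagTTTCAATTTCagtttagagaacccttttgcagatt
Gbp7, chr3:142530241-142530300, plus strand: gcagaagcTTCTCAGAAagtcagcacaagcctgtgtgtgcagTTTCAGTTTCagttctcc
Igtp, chr11:58199491-58199550, plus strand: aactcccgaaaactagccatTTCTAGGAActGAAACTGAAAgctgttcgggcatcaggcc
Irgm2, chr11:58214882-58214941, plus strand: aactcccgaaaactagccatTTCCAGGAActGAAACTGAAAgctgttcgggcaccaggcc
Tgtp1, chr11:48992295-48992354, minus strand: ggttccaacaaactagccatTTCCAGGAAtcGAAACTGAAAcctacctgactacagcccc
Tgtp2, chr11:49064254-49064313, minus strand: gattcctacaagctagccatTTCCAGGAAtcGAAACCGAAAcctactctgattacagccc

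The 250 bases before the start were searched on both strands in each window. An ISRE core was in 2.98% of all 32851 mouse windows, a GAS in 7.02%, an NF-kappaB site in 7.25% and a CArG box in 1.47%. Of the guanylate-binding proteins in the count table, 5 had a window and 5 of these held an ISRE core. Of the immunity-related GTPases, 7 had a window, 6 held an ISRE core and 5 a GAS. For these GTPases and the antiviral genes together, 18 of 34 genes with a window held an ISRE core (52.9%), against 332 of the 10631 tested genes with a window (3.12%). The genes of MHC class I presentation differed: of 17 with a window, 3 held an ISRE core, 2 a GAS and 7 an NF-kappaB site. An NF-kappaB site was in 1112 of the 10631 tested genes. Of the 8 genes called below, 5 had a window, of which 3 held an ISRE core, 0 a GAS and 1 an NF-kappaB site. The called gene H2-K1 held matches to the NF-kappaB site and none to the ISRE core or the GAS. A motif match is a description of the sequence and not a measured binding site. In the stretch of Gbp3, matches to the ISRE core overlap each other.

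Library totals ran from 20901442 to 23543734 counts, and 15062 genes were tested. The check of the labels came first. Srf (ENSMUSG00000015605, chr17:46548329-46556175) stood at 1673, 678 and 1033 CPM (read counts scaled to a common library size) in SRF replicates 1 to 3 and at 70.5 and 81.4 CPM in SRF-PDGFRB replicates 1 and 2, against 66.6, 93.8 and 83.4 CPM in pMSCV. The groups did not overlap, and the log2 fold change of SRF-PDGFRB against SRF was -3.89 (SE 0.46, p adjusted after Benjamini and Hochberg from edgeR's quasi-likelihood fit = 0.00496). Mouse Srf counts were thus high in the SRF line and at the level of the empty vector in the libraries labelled SRF-PDGFRB. In the other fusion lines Srf stood at 121 to 279 CPM (SRF-ICA1L), 85.0 to 155 CPM (SRF-RELA) and 71.8 to 105 CPM (SRF-FOXO1). Pdgfrb, the mouse gene of the fusion partner, stood at 247 and 196 CPM in SRF-PDGFRB and at 259, 245 and 121 CPM in SRF, with a log2 fold change of 0.087 (SE 0.46, adjusted p = 0.982 by edgeR). The Srf counts fit the label of the SRF line, and neither gene checks the label SRF-PDGFRB, which is used here as given.

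The 2 libraries labelled SRF-PDGFRB also stood far apart from each other. Between them, 1181 genes differed by at least 4-fold, 449 higher in replicate 1 and 732 higher in replicate 2, whereas pairs of SRF libraries differed by that much in 160, 435 and 321 genes. The summed level of 7 myoblast markers (Myod1, Myf5, Pax7, Des, Cdh15, Chrna1 and Itga7) was 247 CPM in replicate 1 and 2394 CPM in replicate 2, against 891, 826 and 1516 CPM in SRF. The levels of named genes are therefore given below for each of the 2 libraries.

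The comparison called 8 of 15062 genes at an adjusted p under 0.05 (0.0531% of those tested), of which 7 were higher in SRF-PDGFRB (0.0465%) and 1, Srf, was lower (0.00664%). The 7 higher genes were Gbp3, Gbp2b, Gbp2, Iigp1, Mx1, Nlrc5 and H2-K1. They are 3 guanylate-binding proteins, an immunity-related GTPase, an antiviral GTPase, the transcriptional activator of MHC class I genes, and an MHC class I heavy chain. An unadjusted p under 0.05 was reached by 757 genes (5.03%), 530 of them higher (3.52%) and 227 lower (1.51%), and the groups did not overlap for 1958 genes that were higher (13.0%) and 1917 that were lower (12.7%). The calls rest on few libraries. Without any single SRF library the test called 2 genes, Gbp3 and Srf, in each of the 3 cases; without SRF-PDGFRB replicate 1 it called Gbp3 alone, and without replicate 2 it called 3 genes, Gbp3, Gbp2b and Sema6a.

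**Figure D1:**
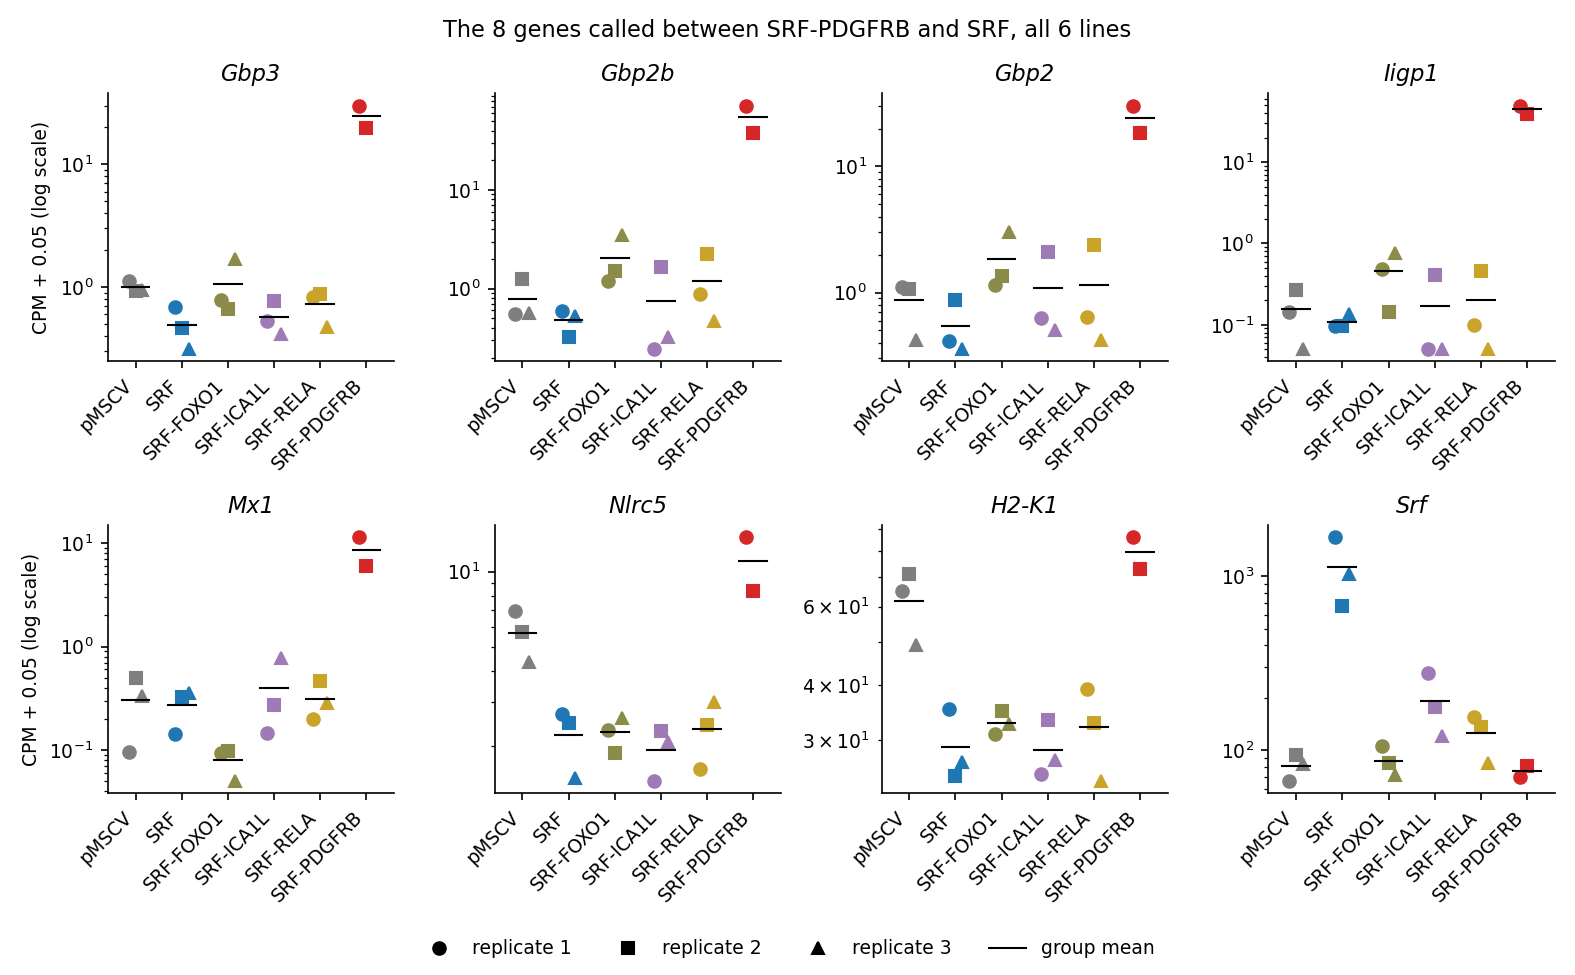
CPM plus 0.05 on a log axis for the 8 called genes, 1 panel a gene, in all 17 libraries by line, with a horizontal line at the group mean. Both SRF-PDGFRB libraries lie above every other library for the 7 higher genes, and Srf is high in the 3 SRF libraries.

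The guanylate-binding proteins were higher in SRF-PDGFRB, and 3 of the 6 in the table were called. Gbp3 (ENSMUSG00000028268, chr3:142560026-142573209) was at 30.0 and 19.5 CPM in SRF-PDGFRB replicates 1 and 2 and at 0.636, 0.411 and 0.261 CPM in SRF. Its log2 fold change was 5.81 (SE 0.52, edgeR adjusted p = 0.000335), and it was called in 12 of the 13 other settings tried; the exception was the fit of these 5 libraries with the replicate number as a block. Gbp2b was at 71.4 and 37.6 CPM against 0.545, 0.274 and 0.479 CPM, a log2 fold change of 6.96 (SE 0.92, edgeR adjusted p = 0.0141). Both genes lay in SRF-PDGFRB far above all SRF libraries, and replicate 1 was the higher of the 2 libraries. Gbp2 was at 30.3 and 18.2 CPM against 0.363, 0.823 and 0.305 CPM, with a log2 fold change of 5.60 (SE 0.88, edgeR adjusted p = 0.0438). These 3 genes stood at 0.192 to 3.43 CPM in the 15 libraries of the other lines.

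The other members in the table were not called. Gbp5 had 185 and 83 counts in the 2 SRF-PDGFRB libraries and 0 counts in each SRF library, which with a floor of 3 counts per library makes it at least 45.3-fold higher (edgeR adjusted p = 0.0756). Gbp9, on chromosome 5, had 428 and 147 counts against 1, 3 and 0, a ratio of 217 with a 95% interval of 84.3 to 799 for counting error only (edgeR adjusted p = 0.268). Gbp7 was at 15.6 and 11.7 CPM against 0.363, 0.183 and 0.131 CPM. In each of the 6 members in the table, both SRF-PDGFRB libraries lay above all 3 SRF libraries; the other 5 genes of the list were not analysed here. The median log2 fold change of the 6 was 6.42, or 5.85 with Gbp5 set at its bound, beside 0.028 over all genes tested. The family's summed level was 175 and 97.3 CPM in SRF-PDGFRB and 1.95, 1.83 and 1.18 CPM in SRF, and the highest of the 12 libraries of the other lines was SRF-FOXO1 replicate 3 at 17.7 CPM. Members of this family are close in sequence, so reads shared between Gbp2 and Gbp2b, for example, may have been assigned or dropped in ways that the counts do not show.

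**Figure D2:**
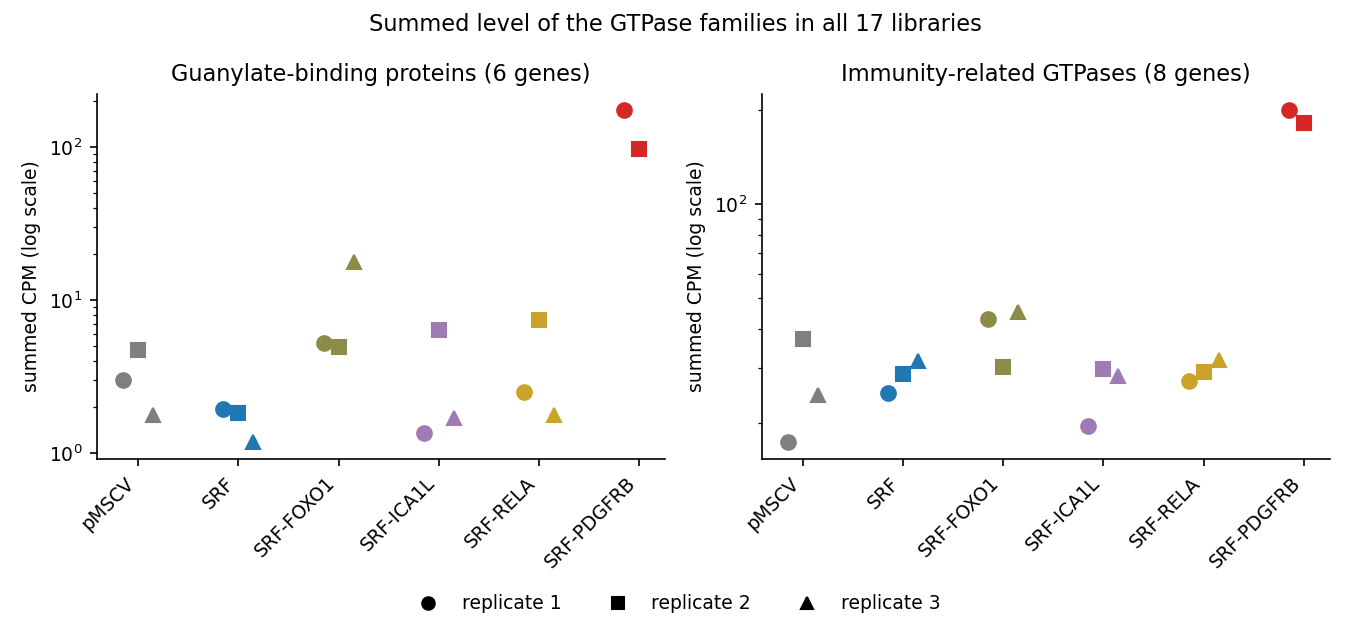
Summed CPM (log axis) of the 6 guanylate-binding proteins and the 8 immunity-related GTPases in the table, for each of the 17 libraries by line. The 2 SRF-PDGFRB libraries stand at 175 and 97.3 CPM on the left and at 200 and 182 CPM on the right, above every other library.

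The immunity-related GTPases were high in both SRF-PDGFRB libraries to a similar degree. Iigp1, an effector that coats pathogen vacuoles, had 1078 and 885 counts in SRF-PDGFRB and 1, 1 and 2 counts in SRF. The ratio was 741 with a 95% interval of 289 to 2723 for counting error only (edgeR adjusted p = 0.0224). Igtp, a regulator of the effectors, was at 40.3 and 25.6 CPM against 0.0909, 0.457 and 0.261 CPM, and did not pass the threshold (log2 fold change 6.90, SE 1.28, edgeR adjusted p = 0.115). Irgm1, another regulator and the most abundant member in SRF cells, was at 53.9 and 64.9 CPM against 22.6, 25.4 and 27.5 CPM (log2 fold change 1.24, SE 0.24, edgeR adjusted p = 0.158). In all 3 genes both SRF-PDGFRB libraries lay above every SRF library, and the fold was smallest for Irgm1, which SRF cells already expressed.

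Irgm2 was at 22.6 and 18.2 CPM against 0.273, 0.594 and 0.349 CPM, Tgtp1 at 10.7 and 8.45 CPM against 0, 0.137 and 0.218 CPM, and Tgtp2 at 12.6 and 11.0 CPM against 0.0909, 0.137 and 0.218 CPM. Ifi47 was at 6.57 and 9.65 CPM against 1.45, 1.19 and 2.40 CPM. Of the 8 members in the table, of 10 in the list, the groups did not overlap for 8, 1 was called, and the median log2 fold change was 5.95. The annotated spans of Igtp and Irgm2 overlap on 1 strand, and Tgtp1 and Tgtp2 are near-identical copies, so the counts of each pair are uncertain. The family's summed level was 200 and 182 CPM in SRF-PDGFRB, 24.9 to 31.6 CPM in SRF and at most 45.2 CPM in the other lines.

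Of the antiviral genes outside these families, 1 of 29 in the table was called, and the members differed among themselves. Mx1, an antiviral GTPase, was at 11.4 and 5.92 CPM against 0.0909, 0.274 and 0.305 CPM, a log2 fold change of 5.24 (SE 0.85, edgeR adjusted p = 0.0476). It was the only called gene of the list and lost the call (7 genes called) when genes under 1 CPM in 2 libraries were left out. Rsad2, an enzyme that makes a chain-terminating nucleotide, stood at 28.2 and 16.2 CPM against 0.591, 0.686 and 0.654 CPM (log2 fold change 5.10, SE 0.88, edgeR adjusted p = 0.0756). Ifit3, which binds viral RNA with its partners, was at 63.2 and 30.3 CPM against 2.77, 1.92 and 0.567 CPM, and Ifit3b was at 16.6 and 9.12 CPM against 0.182, 0.274 and 0.0436 CPM. Ifit3 and Ifit3b are close copies, with uncertain counts. In these genes SRF-PDGFRB replicate 1 was the higher library and replicate 2 was still clear of all SRF libraries.

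Isg15, a ubiquitin-like modifier, was at 12.3 and 8.94 CPM against 2.50, 1.37 and 1.35 CPM, and reached 9.26 CPM in a pMSCV library. Bst2, which tethers budding virions, was at 25.7 and 16.1 CPM against 3.54, 4.07 and 2.53 CPM. The transmembrane restriction factors of the Ifitm group did not share this pattern: Ifitm3 was at 87.3 and 144 CPM against 97.2, 139 and 170 CPM, and Ifitm1 at 2.02 and 12.2 CPM against 7.27, 16.8 and 31.6 CPM. Of 29 members in the table, of 39 in the list, the groups did not overlap for 22 that were higher and 0 that were lower, 19 were higher and 0 lower at an unadjusted p under 0.05, and the median log2 fold change was 1.82. The list's summed level was 946 and 784 CPM in SRF-PDGFRB and 491, 569 and 571 CPM in SRF. It was 884 CPM in pMSCV replicate 2 and 823 CPM in SRF-FOXO1 replicate 1, both above SRF-PDGFRB replicate 2. DESeq2 called 58 genes (0.386% of 15034), 49 higher (0.326%) and 9 lower (0.0599%), and the 8 genes above were among them. Of the 49 higher genes, 6 were guanylate-binding proteins, 8 immunity-related GTPases, 12 antiviral genes and 6 genes of MHC class I presentation. These counts and lists were drawn with earlier results of these libraries known, so they describe the libraries and are no independent evidence.

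**Figure D3:**
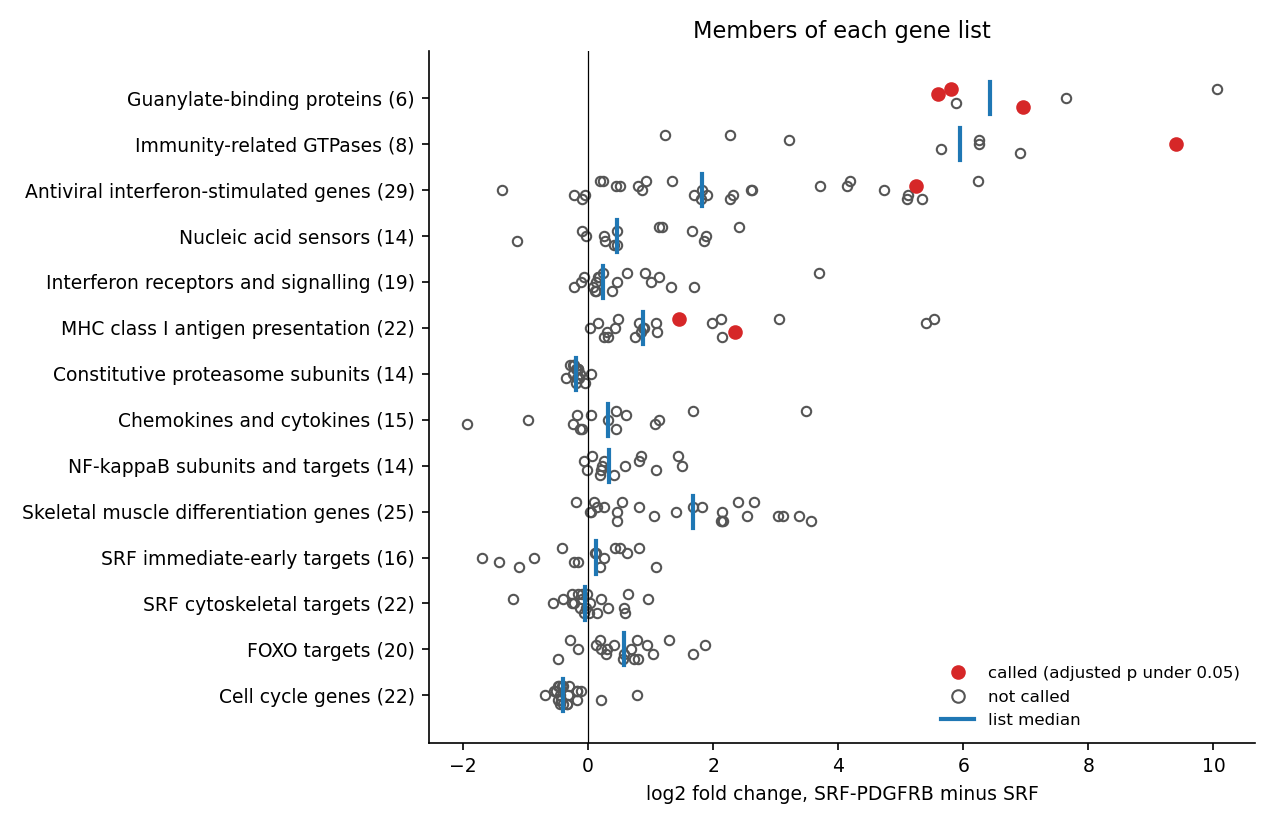
Log2 fold change of SRF-PDGFRB minus SRF for each gene of 14 lists that is in the table (number in parentheses), with called genes filled, other genes open and the list median as a bar. The 2 GTPase families lie at medians of 6.42 and 5.95, whereas the constitutive proteasome subunits and the cytoskeletal targets of SRF lie near 0.

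Of the genes of MHC class I presentation, 2 of 22 in the table were called, both higher. Nlrc5, the activator of class I transcription, was at 13.7 and 8.32 CPM against 2.64, 2.42 and 1.44 CPM, a log2 fold change of 2.34 (SE 0.37, edgeR adjusted p = 0.0438). H2-K1, a classical heavy chain, was at 86.0 and 73.1 CPM against 35.2, 24.9 and 26.8 CPM, a log2 fold change of 1.46 (SE 0.22, edgeR adjusted p = 0.0343). In both genes the groups did not overlap. The pMSCV libraries lay between the groups, at 6.87, 5.69 and 4.30 CPM for Nlrc5 and at 64.9, 70.9 and 49.2 CPM for H2-K1. B2m, the light chain of all class I molecules, was at 464 and 445 CPM against 272, 278 and 262 CPM (log2 fold change 0.75, SE 0.23, edgeR adjusted p = 0.873). Libraries of other lines reached 498 CPM (pMSCV) and 457 CPM (SRF-FOXO1) for B2m.

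Psmb8 and Psmb9, catalytic subunits of the immunoproteasome, which cuts proteins into class I peptides, had 120 and 107, and 141 and 66 counts in SRF-PDGFRB; in SRF each had 1, 5 and 1 counts. Tap1, a subunit of the peptide transporter, was at 25.1 and 8.23 CPM against 1.64, 3.66 and 0.741 CPM. It reached 10.0 CPM in an SRF-RELA library and 8.53 CPM in an SRF-FOXO1 library, both above SRF-PDGFRB replicate 2. Calr, a chaperone of the same pathway, overlapped between the groups, at 2612 and 1088 CPM against 1697, 1383 and 910 CPM. With Calr included, the list's summed level was 4391 and 2646 CPM in SRF-PDGFRB. In SRF that sum was 2956, 2647 and 2068 CPM, so the groups overlapped there as well. Of 22 members in the table, of 25 in the list, the groups did not overlap for 17 that were higher and 0 that were lower, 12 were higher at an unadjusted p under 0.05, and the median log2 fold change was 0.88. The 14 constitutive proteasome subunits differed from this: 0 were called or under an unadjusted p of 0.05, their median was -0.19, and the lowest, Psmb2, was at 116 and 115 CPM against 182, 135 and 126 CPM. For 7 of these 14 the groups did not overlap and SRF-PDGFRB was lower. Heavy chain genes of the H2-Q and H2-T groups are close copies, and H2-Q4 (27.8 and 19.9 CPM against 4.82, 6.67 and 4.71 CPM) is uncertain for that reason. Of class II, 3 of 8 listed genes were in the table, with overlapping groups for each.

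Among sensors, signalling genes and ligands, edgeR called 0 genes, and the medians were below those of the GTPase families. Among receptors and signalling genes, Irf7, a transcription factor of type I interferon genes, was at 12.6 and 5.74 CPM against 0.818, 0.457 and 0.828 CPM (log2 fold change 3.70, SE 0.95, edgeR adjusted p = 0.477). Stat2, which acts at the ISRE, was at 38.8 and 39.3 CPM against 21.5, 18.9 and 17.6 CPM. Irf1 was at 89.6 and 41.6 CPM against 18.8, 25.2 and 34.6 CPM. For these 3 transcription factors both SRF-PDGFRB libraries lay above all SRF libraries. Libraries of other lines reached 64.8 CPM (SRF-ICA1L) and 65.9 CPM (SRF-RELA) for Irf1, and 42.3 CPM (SRF-FOXO1) for Stat2. For Irf7 the highest was 2.96 CPM, in SRF-FOXO1. The receptor chain Ifngr1 (44.0 and 41.7 CPM against 34.6, 38.3 and 46.6 CPM) and the kinase Jak1 (236 and 208 CPM against 254, 267 and 203 CPM) overlapped. Of 19 members in the table, 6 were higher and 0 lower at an unadjusted p under 0.05, with a median of 0.23 (0.49 in replicate 1 and 0.25 in replicate 2, in log2 CPM from the SRF mean).

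Among 14 nucleic acid sensors, 6 were higher and 0 lower at an unadjusted p under 0.05, with a median of 0.46; the median difference from the SRF mean, in log2 CPM, was 0.94 in replicate 1 and 0.43 in replicate 2. Dhx58, a cytosolic RNA sensor, was at 3.21 and 3.25 CPM against 0.545, 0.640 and 0.610 CPM, and the RNA sensor Ifih1 was at 9.64 and 2.76 CPM against 2.36, 1.74 and 0.915 CPM. Ifih1 reached 4.88 CPM in an SRF-FOXO1 library and 4.19 CPM in a pMSCV library, both above SRF-PDGFRB replicate 2. Aim2, a DNA sensor, was at 1.06 and 11.4 CPM against 20.5, 10.6 and 10.0 CPM, so the 2 SRF-PDGFRB libraries fell on both sides of SRF replicates 2 and 3. Of 12 listed interferons and related ligands, 1 was analysed here, Il15, with 75 and 41 counts against 17, 27 and 7 counts. These are 3.44 and 1.82 CPM in SRF-PDGFRB. SRF-FOXO1 replicate 3 (6.87 CPM) and pMSCV replicate 2 (3.70 CPM) lay above both. Cxcl10, a chemokine that interferons induce, was at 18.2 and 4.63 CPM against 1.77, 1.10 and 0.174 CPM (log2 fold change 3.49, SE 1.14, edgeR adjusted p = 0.91), the highest fold of 15 chemokines and cytokines, whose median was 0.32 (0.50 in replicate 1 and 0.081 in replicate 2). Among 14 NF-kappaB subunits and targets, 0 passed an unadjusted p of 0.05 and the median was 0.34. The highest, Tnfaip3, was at 225 and 29.0 CPM against 37.3, 61.6 and 35.1 CPM, high in replicate 1 alone.

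In bulk RNA, more cells of another type and more RNA per cell cannot be told apart, so markers of other cell types were read beside these genes. Of 9 macrophage markers 4 were in the table, with summed levels of 30.2 and 15.7 CPM in SRF-PDGFRB and of 20.9, 20.0 and 15.8 CPM in SRF. Csf1r, the receptor of a macrophage growth factor, was at 2.39 and 0.0890 CPM against 0.318, 0.366 and 0.349 CPM. Of these 4 macrophage markers, 4 lay above all SRF libraries in replicate 1 and 0 in replicate 2. The other 5, Ptprc, Adgre1, Itgam, Tyrobp and Fcer1g, were not analysed here, and of 7 lymphocyte markers 0 were in the table. The part of the macrophage markers in the values of replicate 1 was not tested. The summed level of 5 fibroblast markers was 58.4 and 191 CPM against 39.4, 48.3 and 62.0 CPM, so replicate 2 lay above all SRF libraries and replicate 1 did not. For 4 pericyte markers it was 168 and 224 CPM against 160, 210 and 149 CPM, and for 3 adipocyte markers 32.5 and 77.9 CPM against 51.8, 113 and 90.7 CPM. The 2 endothelial markers in the table, Cdh5 and Tek, summed to 0.138 and 0.133 CPM against 0.500, 0.0457 and 0.174 CPM. None of these sums was higher in both SRF-PDGFRB libraries than in all 3 SRF libraries. Mpeg1, a gene known from macrophages that is not in the marker list and was chosen after its values were seen, was higher in both, at 5.88 and 2.58 CPM against 0.318, 0.503 and 0.0436 CPM (edgeR adjusted p = 0.328, DESeq2 adjusted p = 0.0191). Its part, too, was not tested.

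The 2 SRF-PDGFRB libraries went opposite ways in genes of skeletal muscle differentiation. Myog, the transcription factor that commits myoblasts to fuse, was at 0.230 CPM in replicate 1 and 85.5 CPM in replicate 2, against 2.59, 1.97 and 6.23 CPM in SRF. Cdh15, the cadherin of myoblasts, was at 12.9 and 412 CPM against 173, 149 and 276 CPM, and Des, the muscle intermediate filament, at 44.5 and 892 CPM against 284, 324 and 624 CPM. In each of these genes replicate 1 lay below all 3 SRF libraries and replicate 2 above them. Of 25 members in the table, 24 were higher in replicate 2 than in replicate 1, with a median log2 difference from SRF of -3.06 in replicate 1 and 2.87 in replicate 2. The fitted log2 fold change of Myog, 3.57 (SE 1.40, edgeR adjusted p = 0.91), and the list median of 1.69 are means over these 2 opposite libraries. Without SRF-PDGFRB replicate 2, the log2 fold change of Myog was -3.94.

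**Figure D4:**
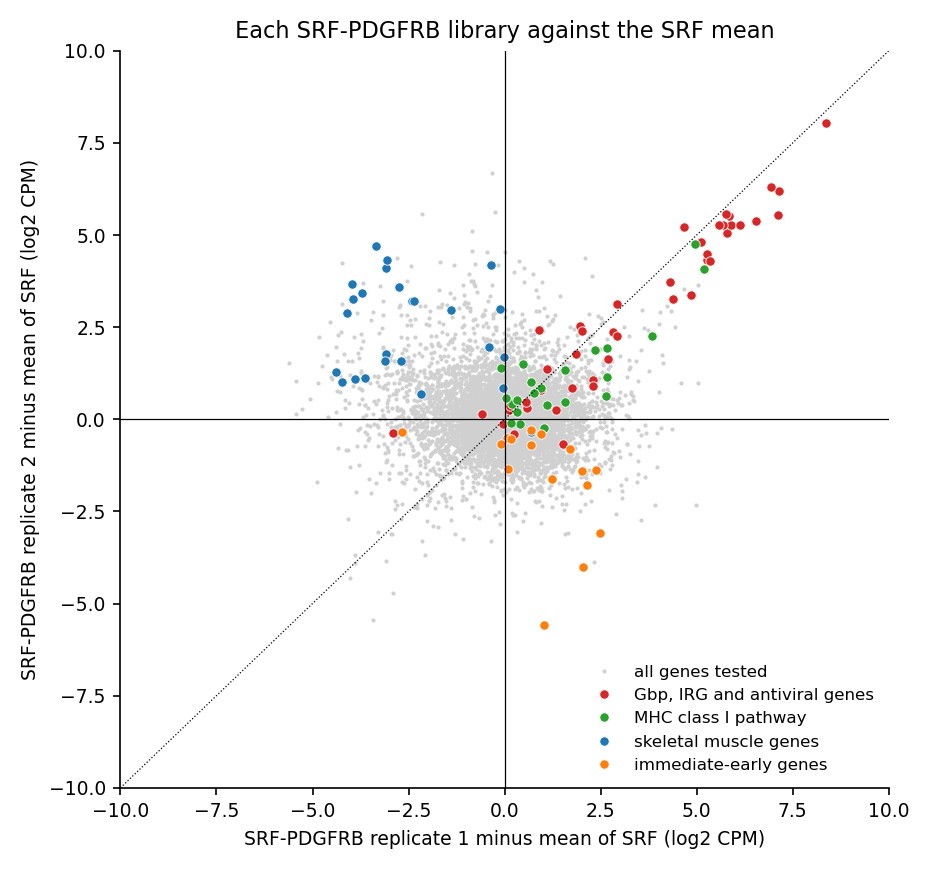
Log2 CPM of each gene in SRF-PDGFRB replicate 1 (x axis) and replicate 2 (y axis), each minus the mean of the 3 SRF libraries, for all 15062 genes with 4 sets of lists coloured. The genes of the 2 GTPase families are high in both libraries. Of 29 antiviral genes, 25 lie above all SRF libraries in replicate 1 and 23 in replicate 2, and 2 lie below them in each. The antiviral genes are mostly higher in replicate 1 (22 of 29). By contrast, 24 of 25 skeletal muscle genes lie above the diagonal and 15 of 16 immediate-early genes below it.

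Immediate-early genes, the serum-induced targets of SRF, diverged the other way. Egr1, an early growth response transcription factor, was at 2574 and 170 CPM in SRF-PDGFRB against 981, 1576 and 127 CPM in SRF. Fosb was at 188 and 1.87 CPM against 467, 455 and 3.70 CPM, and Junb at 2105 and 156 CPM against 548, 922 and 131 CPM. SRF replicate 3 was low for these 3 genes as well, so the low levels were not particular to SRF-PDGFRB replicate 2. The list's summed level was 1617 CPM in SRF-PDGFRB replicate 2 and 1632 to 2375 CPM in replicate 3 of every other line. In replicate 2 of those lines it was 6157 to 12795 CPM. SRF-FOXO1 replicate 1 was also low, at 1933 CPM. Of 16 members, 15 were higher in SRF-PDGFRB replicate 1 than in its replicate 2, 0 were called, 0 passed an unadjusted p of 0.05 and the median was 0.12. Whether the replicates of a line were grown or harvested differently is not given in the sources used here. The levels of both groups in pMSCV, where replicate 3 was also low for Egr1 (84.7 CPM), are in the plot of muscle and immediate-early genes.

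**Figure D5:**
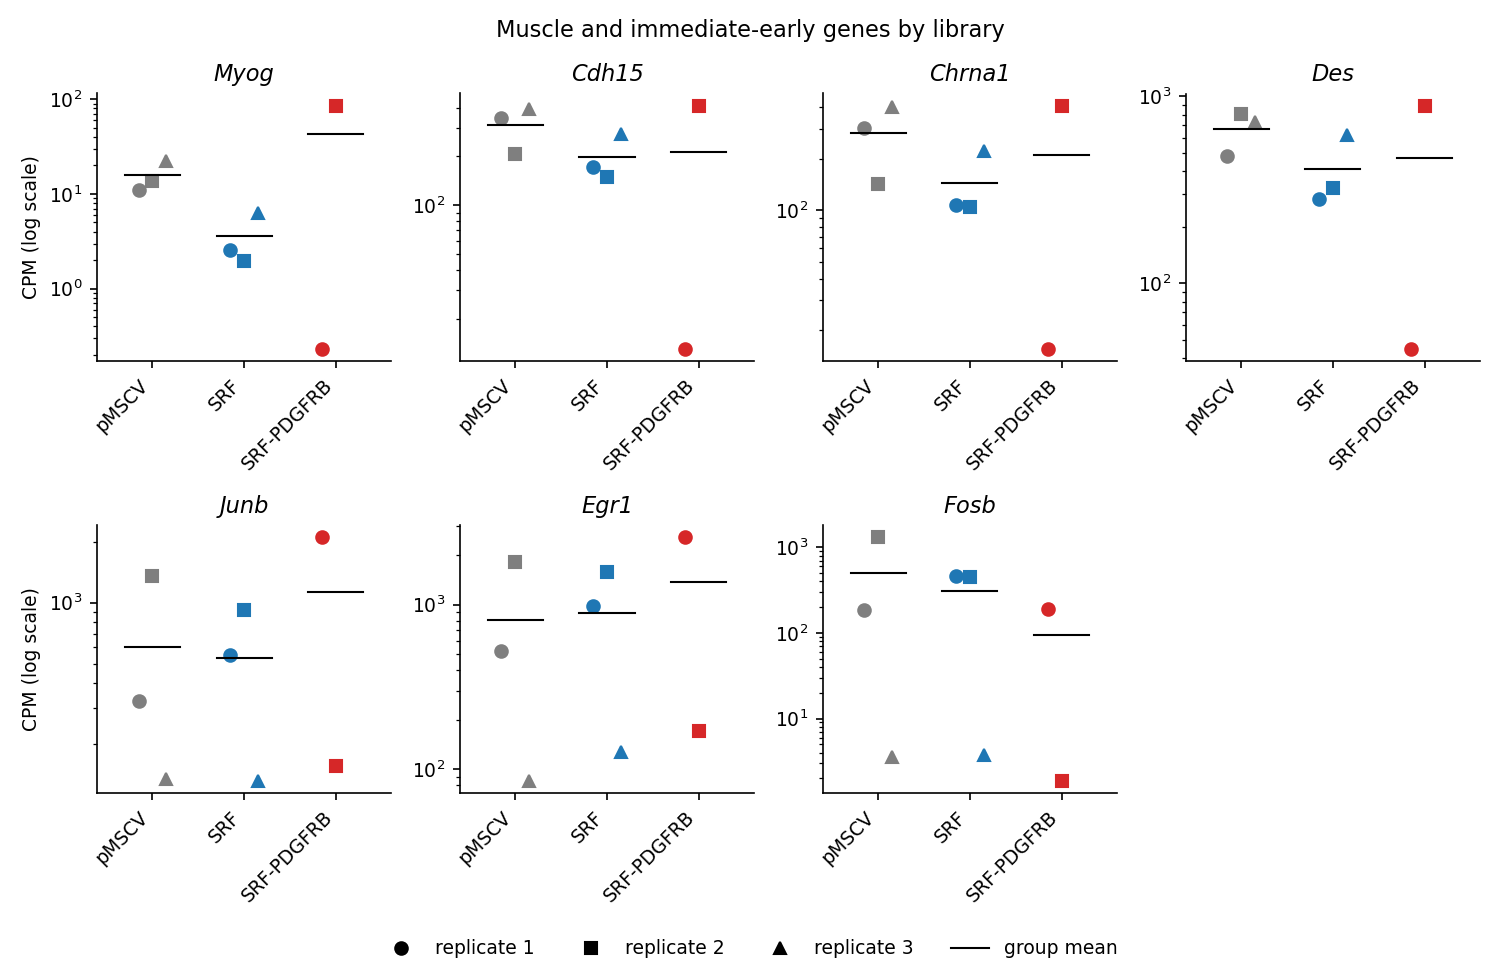
CPM (log axis) of 4 muscle genes (top row) and 3 immediate-early genes (bottom row) in the pMSCV, SRF and SRF-PDGFRB libraries, with a horizontal line at each group mean. SRF-PDGFRB replicate 1 is the lowest library for the muscle genes and replicate 2 the highest, and replicate 2 of SRF-PDGFRB lies near replicate 3 of SRF for Junb, Egr1 and Fosb.

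The other lists linked to SRF and to PDGF signalling had medians at or below 0, with few genes past an unadjusted p of 0.05, but for some lists the 2 libraries lay on opposite sides of SRF. Among 22 cytoskeletal targets of SRF, 1 was higher and 1 lower at an unadjusted p under 0.05, and the median was -0.049; the median difference from the SRF mean, in log2 CPM, was 0.027 in replicate 1 and -0.044 in replicate 2. Actb, cytoplasmic actin, was at 2013 and 2616 CPM against 2501, 2886 and 3818 CPM. Fhl1, a LIM protein of muscle, had the lowest log2 fold change of the list (-1.20, SE 0.58, edgeR adjusted p = 0.91), at 73.0 and 429 CPM against 425, 377 and 931 CPM, and was low in replicate 1. Among 12 smooth muscle contractile genes the median was -0.52 (-0.52 in replicate 1 and -0.23 in replicate 2) and 0 passed an unadjusted p of 0.05; Acta2, the smooth muscle actin, was at 1978 and 1547 CPM against 973, 2187 and 3902 CPM. These groups overlapped for both actins.

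Of the cofactors of SRF, 0 of the 7 genes in the table were called. For the PDGF receptors and ligands, 0 of 7 passed an unadjusted p of 0.05 and the median was -0.13, from a median difference of -0.70 in replicate 1 and 0.27 in replicate 2. For 16 genes of ERK feedback, which rise when that pathway is active, 0 passed an unadjusted p of 0.05 and the median was -0.10, with 0.13 in replicate 1 and -0.28 in replicate 2; Ccnd1 was at 406 and 388 CPM against 448, 435 and 549 CPM. A p that misses the threshold with 2 against 3 libraries does not show that the levels were alike. A CArG box was in the promoter window of 5 of 418 genes that were higher at an unadjusted p under 0.05 (1.2%), 3 of 146 that were lower (2.05%) and 158 of all 10631 tested genes with a window (1.49%). The corresponding shares for the ISRE core were 42 of 418 (10.0%), 6 of 146 (4.11%) and 3.12%.

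Other lists gave 0 calls. Among 20 FOXO targets, 4 were higher at an unadjusted p under 0.05 and the median was 0.57; the highest, Pik3ip1, was at 17.5 and 11.2 CPM against 4.36, 4.80 and 2.57 CPM. Among 22 cell cycle genes, 0 passed an unadjusted p of 0.05, the groups did not overlap for 10 that were lower and 1 that was higher, and the median was -0.40 (-0.58 in replicate 1 and -0.17 in replicate 2, in log2 CPM from the SRF mean). Mcm2, a subunit of the replicative helicase, was at 131 and 172 CPM against 256, 235 and 241 CPM, and Cdkn1a, an inhibitor of cyclin-dependent kinases, at 470 and 340 CPM against 209, 323 and 178 CPM. Among 26 collagen and matrix genes the median was -0.15, and in 21 of them replicate 2 was higher than replicate 1; Fn1, fibronectin, was at 1211 and 4264 CPM against 2300, 2433 and 4447 CPM.

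Among genes lower in the libraries labelled SRF-PDGFRB, edgeR called 0 apart from Srf. By the naming rule, the 10 lowest of 118 eligible genes were Pappa, Glrp1, Rhox5, Aldh1a1, Ptprn, Magea8, Ccbe1, Dcaf8l, Zfp979 and Gask1b. Pappa, a protease that frees insulin-like growth factors from their binding proteins, was at 0.184 and 0.133 CPM against 5.63, 6.17 and 2.40 CPM (log2 fold change -4.85, SE 1.28, edgeR adjusted p = 0.511). Gask1b was at 2.66 and 2.31 CPM against 11.2, 10.7 and 9.59 CPM, the smallest adjusted p of the 10 (log2 fold change -2.07, SE 0.38, edgeR adjusted p = 0.0958). Ptprn, a receptor-type phosphatase of secretory granules, was at 2.11 and 3.34 CPM against 19.1, 16.8 and 12.7 CPM. In these 3 genes the 2 SRF-PDGFRB libraries were close to each other. Glrp1, Rhox5, Magea8 and Dcaf8l were highest in SRF replicate 1; Rhox5, an X-linked homeobox gene, was at 2.39 and 1.02 CPM against 27.3, 11.6 and 3.97 CPM.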

How the data were processed

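RNA was sequenced from 17 libraries of C2C12 lines. Per the submitters' processing notes, FastQC 0.11.8, Trimmomatic 0.39, HISAT2 and featureCounts of Subread 2.0.0 were used with the GRCm38 build; the annotation, the strand setting and the handling of reads shared by several genes are not given in the sources used here. The authors deposited raw counts per gene in 1 table. All 15062 genes in it had at least 10 counts in 3 or more libraries; a gene seen solely in both SRF-PDGFRB libraries is not analysed here. Groups and replicate numbers came from the titles; 1519 of 1531 genes without a symbol received one by identifier, and positions are from a GENCODE annotation of the same build.

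The counts were scaled with TMM factors and a quasi-likelihood model was fitted in edgeR 4.0.16 under R 4.3.3 with limma 3.58.1 (robust dispersions, a term for group only, all 17 libraries, no gene removed by edgeR's filter). Adjustment followed Benjamini and Hochberg over all genes, and calls required an adjusted p under 0.05. The SE of a log2 fold change is the absolute fold change over the root of the F statistic. CPM values use the TMM-scaled totals, and log2 CPM a prior count of 2. The biological coefficient of variation was 36.5%, so differences between libraries, not depth, limit the precision for all but the weakest genes; 3 counts were the floor. Pairs of SRF libraries and the pair of SRF-PDGFRB libraries differed beyond counting noise, with a chi-square of 29.8 to 148 for each degree of freedom. The scripts were tested on simulated data.

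The text names every called gene, Srf and Pdgfrb, up to 10 highest and 10 lowest genes not called (unadjusted p under 0.05, groups not overlapping, at least 50 counts in each library of the higher group, no predicted gene), and in each list the called, highest, lowest and most abundant members, with any member of the interferon and MHC class I lists. Genes outside this rule, Sema6a, Mpeg1 and those of the last section, were chosen after their values were seen. The comparison and the lists were chosen with earlier results of these data known. Lists were described by counts and medians without a test of the list. DESeq2 1.42.0, other scalings, filters and fits, and leaving out each library were the alternatives. Mx1 and Nlrc5 were not searched for promoter motifs, and some genes are not reported here.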

Additional observations from a re-analysis of the deposited data

How the results depend on the processing

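The 8 calls became 58 with DESeq2 (932 genes at an unadjusted p under 0.05, 8 calls shared) and ranged from 1 to 3 when 1 library was left out. With DESeq2's size factors or upper-quartile factors in edgeR, or without robust dispersions, the same 8 genes were called; edgeR's filter removed no gene, so a fit with no filter is the reported one. The fit of the 5 SRF-PDGFRB and SRF libraries alone called 10 genes, all higher and 3 of them among the 8; Srf was not called. The labels share replicate numbers but state no pairing, so the numbers were not taken as pairs. The libraries' deviations from their group means correlated across genes at 0.27 for replicate 1 and -0.39 for replicate 2. With 2 SRF-PDGFRB libraries these deviations are mirror images, so the 2 correlations are not separate checks and do not decide pairing. The highest correlation, 0.52, was between SRF-PDGFRB replicate 2 and SRF replicate 3. With the replicate block, 32 genes were called over all libraries and 0 over the 5 libraries (edgeR; 451 genes had an unadjusted p under 0.05). In the blocked fit over all libraries the log2 fold change was -0.028 for Pdgfrb, -0.041 for Des and -0.084 for Sema6a; with the block over the 5 libraries it was -0.19 for Pdgfrb, -1.11 for Cdh15, -0.39 for Chrna1, -0.60 for Des, -0.31 for Junb, -0.91 for Egr1, 0.27 for Acta2 and -1.46 for Sema6a. Leaving out 1 library turned the direction of 15 of the named genes, 0 of them called in all 17 libraries: the log2 fold change ranged from -3.94 to 4.55 for Myog, from -3.94 to 1.03 for Cdh15, from -3.22 to 1.48 for Chrna1, from -3.21 to 1.11 for Des, from -2.25 to 0.61 for Myf5, from -4.61 to 1.14 for Sema6a, from -1.34 to 0.46 for Fn1 and from -0.63 to 0.081 for Ifitm3. In these 8 genes the lowest value was without SRF-PDGFRB replicate 2 and the highest without replicate 1. In the opposite order it ranged from -2.41 to 1.52 for Egr1, from -1.79 to 1.98 for Junb, from -0.64 to 2.33 for Tnfaip3, from -1.90 to 2.77 for Csf1r and from -0.30 to 0.97 for Calr. Leaving out SRF libraries gave the extremes for Acta2 (-0.79 to 0.16) and Pdgfrb (-0.19 to 0.27). The cause was not tested.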

Other observations

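Of the 49 higher genes that DESeq2 called, 14 were in none of the lists. Chosen after their values were seen, several were Trim30a (13.5 and 7.56 CPM in the 2 SRF-PDGFRB libraries against 0, 0.457 and 0.0436 CPM in SRF), Phf11d (14.6 and 5.52 CPM against 0.500, 0.411 and 0.218 CPM), Slfn2 (7.30 and 3.29 CPM against 0.273, 0.411 and 0.0436 CPM) and Sp100, a nuclear body protein (17.6 and 5.78 CPM against 1.36, 1.33 and 0.828 CPM). Abcb1a, a drug efflux pump, was at 41.2 and 15.6 CPM against 1.05, 4.94 and 1.39 CPM. In each of these 5 genes both SRF-PDGFRB libraries lay above all SRF libraries and replicate 1 was the higher one.

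DESeq2 called 9 lower genes. Beside Srf, Ptprn, Gask1b, Pappa and Zfp979, these included B3galt1 (0.413 and 0.356 CPM against 7.50, 3.89 and 1.79 CPM), Sec61a1, a subunit of the protein translocation channel (161 and 189 CPM against 250, 242 and 237 CPM), and Fam234b. Sema6a, called without SRF-PDGFRB replicate 2, was at 1.15 and 62.6 CPM against 28.9, 25.6 and 30.2 CPM.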
